A study of Mus musculus with 4 samples.

Results

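Chemokines are small secreted or membrane-anchored proteins that direct the movement of cells through receptors of the G-protein-coupled class. The genes examined were given by name: the CXC ligands Cxcl1, Cxcl2, Cxcl3, Cxcl5, Cxcl12, Cxcl14 and Cxcl16 and the CX3C ligand Cx3cl1, 8 of the 55416 genes in the files. The RNA came from C2C12, a line of mouse myoblasts, transfected with DNA for K97E lamin A (2 libraries), a mutant of dilated cardiomyopathy (DCM) per the series' design text, or with DNA for wild-type lamin A (2 libraries), written WT from here on. The titles of both K97E samples read C1C12, while the cell line field of all 4 samples reads C2C12, and the field was followed. Both groups had received 3 µg of DNA with the same lipid reagent, and cells were harvested 24 h later. The wild-type group is thus itself transfected and carries added lamin A, and untransfected or empty-vector cells were not analysed here. The vector and its promoter, the share of cells that took up the DNA, and the cultures behind each replicate are not given in the sources used here. The labels call the replicates biological, but nothing says that they were separate cultures, so p-values measure the spread of these 4 samples alone, and that spread may be technical.

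The CXC ligands with a glutamate-leucine-arginine (ELR) motif before the first cysteines, here Cxcl1, Cxcl2, Cxcl3 and Cxcl5, attract neutrophils through CXCR2. They are typical early targets of NF-kB, the transcription factor family that interleukin-1, TNF and Toll-like receptors switch on. The mRNAs of Cxcl1, Cxcl2 and Cxcl3 carry AU-rich elements that mark them for fast decay. Cxcl12 is the homeostatic ligand of CXCR4 and ACKR3, which holds stem cells in their niche and guides migrating muscle precursors, and Cxcl14 is a further homeostatic ligand of epithelia. Cxcl16 and Cx3cl1, the ligands of CXCR6 and CX3CR1, are made as membrane proteins from which the metalloproteases ADAM10 and ADAM17 release a soluble form. Myoblasts are known to make such ligands in culture, and in injured muscle they draw in leukocytes.

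The files were read on a per-length scale, TPM (transcript abundance per length, scaled to the same total in every library), as the sum over a gene's transcripts. The libraries held coverage worth 115619092 and 107805586 reads of 100 bases with K97E and 89612698 and 106357912 with WT, and 16304 genes with a mean of at least 0.5 TPM were tested with limma. Of 9 myoblast markers 7 were tested and none passed after adjustment. Both K97E libraries lay below both WT libraries for 4 of the 7, Myod1, Des, Vcam1 and Chrna1. Of all tested genes 16.8% did so after scaling and 9.72% on TPM as deposited. The groups overlapped for Myf5, Cdh15 and Itga7, with log2 differences of -0.14, 0.03 and 0.013. Vcam1 stood at 45.8 and 52.7 TPM with K97E and 63.8 and 64.7 TPM with WT (log2 difference -0.44). Chrna1 stood at 40.2 and 41.3 TPM with K97E and 49.8 and 51.8 TPM with WT (-0.37). Both had an unadjusted limma p under 0.05, beside 2.54% of all tested genes in that direction and 3.68% in either. Des was at 401 and 384 TPM with K97E and 404 and 467 TPM with WT, and Myod1 at 4.56 and 4.67 TPM with K97E and 4.96 and 4.94 TPM with WT, while Pax7 and Msc were at or near 0 throughout. Of 7 neutrophil markers S100a9, Csf3r and Ngp were listed at 0 in every library, and the sum over the list was 1.71 and 0.701 TPM with K97E and 1.79 and 3.47 TPM with WT, lower in both K97E libraries. Most of it was Ly6g and S100a8, both at few reads. For S100a8 both K97E libraries lay below both WT libraries, beside 16.8% of all tested genes after scaling and 9.72% as deposited. It stood at 0.923 and 0.206 TPM with K97E and 1.17 and 1.86 TPM with WT. That is 24 and 5 estimated reads with K97E and 24 and 45 with WT. Ly6g overlapped between groups, on 31 and 20 estimated reads with K97E and 18 and 65 with WT. Of 8 leukocyte markers Adgre1 was listed at 0 and Ptprc, the pan-leukocyte CD45, stood at 0.037 and 0.017 TPM with K97E and 0.007 and 0.05 TPM with WT, but the summed list ran from 56.6 to 59.8 TPM with K97E and from 48.6 to 66.5 TPM with WT, and Cd14 made up 50.9 and 50.6 TPM of it with K97E and 42.7 and 57.1 TPM with WT. Of 6 fibroblast markers 3 were tested and none passed. Pdgfra stood at 10.2 and 11.2 TPM with K97E and 9.29 and 9.33 TPM with WT (log2 difference 0.13). Pdgfrb stood at 74.5 and 70.9 TPM with K97E and 63.1 and 59.1 TPM with WT (0.19). Both were higher in both K97E libraries, beside 16.3% of all tested genes after scaling and 25.9% as deposited. Dcn overlapped, at 18.6 and 28.6 TPM with K97E and 31.85 and 26.6 TPM with WT, with a log2 difference of -0.38. The sum over the list was 103.6 and 110.9 TPM with K97E and 104.4 and 95.2 TPM with WT, with Lum listed at 0. The sum over 6 endothelial markers was 21.0 and 22.2 TPM with K97E and 24.9 and 22.4 TPM with WT, with Kdr listed at 0. Most of it was Cdh5, which overlapped between groups, at 17.1 and 18.75 TPM with K97E and 20.3 and 17.8 TPM with WT. Flt1 stood at 3.49 and 3.13 TPM with K97E and 4.13 and 3.95 TPM with WT. Flt1 was thus lower in both K97E libraries, beside 16.8% of all tested genes after scaling and 9.72% as deposited. The part of such cells in the values that follow was not tested. In bulk RNA, fewer cells that make a transcript and less of it per cell cannot be told apart.

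Cxcl1, Cxcl2 and Cxcl3 lie on chromosome 5 with Cxcl5, and their promoters are shown because these close relatives carry the same short elements, while their measured levels were far apart. The sequences are those of RefSeq for GRCm38.p6, 250 bases before to 50 bases after the start, all on the plus strand, at chr5:90890995-90891294 for Cxcl1, chr5:90903649-90903948 for Cxcl2 and chr5:90785851-90786150 for Cxcl3. Capitals mark matches to GGG, any 3 bases and TTCC, a form of the kappaB element that NF-kB binds, and to ATAAAAGG, an AT-rich box, each searched on both strands.
Cxcl1: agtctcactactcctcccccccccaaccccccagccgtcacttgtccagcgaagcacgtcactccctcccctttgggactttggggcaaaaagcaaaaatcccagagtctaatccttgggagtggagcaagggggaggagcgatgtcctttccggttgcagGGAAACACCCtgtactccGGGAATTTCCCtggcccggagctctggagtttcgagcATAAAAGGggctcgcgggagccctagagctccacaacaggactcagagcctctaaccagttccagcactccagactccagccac
Cxcl2: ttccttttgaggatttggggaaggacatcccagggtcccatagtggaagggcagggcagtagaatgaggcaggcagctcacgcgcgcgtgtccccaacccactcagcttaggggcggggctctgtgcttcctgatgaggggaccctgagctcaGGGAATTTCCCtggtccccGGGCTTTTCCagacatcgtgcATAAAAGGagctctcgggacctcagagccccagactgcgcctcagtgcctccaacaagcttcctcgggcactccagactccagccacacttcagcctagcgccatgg
Cxcl3: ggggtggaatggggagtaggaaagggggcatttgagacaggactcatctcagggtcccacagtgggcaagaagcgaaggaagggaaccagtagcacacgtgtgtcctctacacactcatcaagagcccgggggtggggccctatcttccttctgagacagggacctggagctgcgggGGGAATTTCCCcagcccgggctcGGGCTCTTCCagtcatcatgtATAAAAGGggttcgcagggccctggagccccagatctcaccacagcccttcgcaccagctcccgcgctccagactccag
All 3 held GGGAATTTCC, which overlaps a further match on the minus strand, with its first base at -71 in Cxcl1, -97 in Cxcl2 and -73 in Cxcl3 from the start. That exact sequence occurred in 0.0883% of the 32851 promoters in the table, the looser form with any 3 bases in 5.56% and ATAAAAGG in 1.76%. A further match was GGAAACACCC at -89 in Cxcl1, on the minus strand, GGGCTTTTCC at -78 in Cxcl2 and GGGCTCTTCC at -50 in Cxcl3. The windows of Cxcl12, Cxcl14 and Cx3cl1 held none of these letters, and Cxcl5 and Cxcl16 were not in the table.

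The mRNAs of the same ligands also carry ATTTA pentamers in their 3′ untranslated regions, the core of the AU-rich element through which the decay factors TTP (Zfp36) and its relatives shorten mRNA life. The densest stretch of each of these 3′ regions, read from GENCODE M21 transcripts with pentamers in capitals, is given for the ligands with several in a short span.
Cxcl1: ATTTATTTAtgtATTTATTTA
Cxcl2: ATTTATTTAtctatgtATTTATTTATTTA
Cxcl3: ATTTAatgtttATTTA
Counted over the whole 3′ region, Cxcl1 had 7 pentamers in 592 bases, Cxcl2 had 11 in 734 bases, Cxcl3 had 5 in 645 bases and Cxcl5 had 5 in 1111 bases. Among 3′ regions of other genes within 20% of the same length, 0.367% had as many as Cxcl1, 2.99% as many as Cxcl3 and 13.2% as many as Cxcl5, and the share with as many as Cxcl2 was 0% of 2373. Cx3cl1 had 1 in 1871 bases and Cxcl12 had 4 in 5188 bases, where 90.0% and 89.7% of regions of like length had as many. Cxcl16 had 2 in 1421 bases and Cxcl14 had 0.

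The 8 ligands spanned a wide range of levels, and Cxcl1 stood far above the others. Averaged over the 4 libraries, Cxcl1 was at 525 TPM, Cx3cl1 at 20.8 TPM, Cxcl12 at 18.9 TPM and Cxcl5 at 6.90 TPM. Cxcl1 ranked 268th of all genes by level. Cxcl16, Cxcl3 and Cxcl2 followed at 0.0866, 0.0482 and 0.0478 TPM, and Cxcl14 was listed at 0 in all libraries. Neighbours in this order did not all differ beyond their spread. Cx3cl1 and Cxcl12 overlapped, with a Cxcl12 to Cx3cl1 ratio of 0.741 and 1.11 in the K97E libraries and 1.21 and 0.509 in the WT libraries, and so did the 3 genes just above 0. Only Cxcl1, Cxcl5, Cxcl12 and Cx3cl1, 4 of 8, reached the mean for testing.

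**Figure D1:**
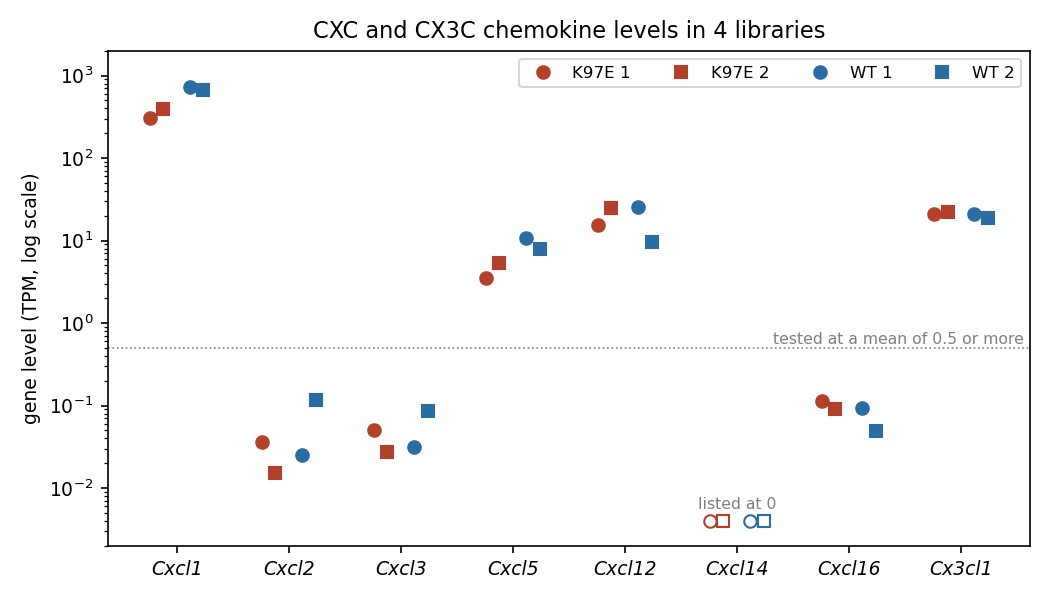
Gene level in TPM (log axis) of the 8 ligands, 1 point a library, with K97E in red left of WT in blue, circles for replicate 1 and squares for replicate 2, and open symbols for values listed at 0. Cxcl1 lay at 303 to 730 TPM, and of the tested ligands Cxcl1 and Cxcl5 had both K97E points below both WT points.

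Cxcl1 (ENSMUSG00000029380), the mouse KC or GRO ligand and a main neutrophil attractant of mice, lies on GRCm39 chromosome 5 at 91039100 to 91040974 on the plus strand. It stood at 303 and 393 TPM in the K97E libraries, against 729.7 and 675 TPM in the WT libraries. Both K97E libraries were below both WT libraries, and the higher library of a group stood at 1.30 times the lower with K97E and 1.08 times with WT. The mean was 348 ± 64.0 TPM with K97E and 702 ± 39.0 TPM with WT (SD, n = 2 each), a ratio of 0.496. The log2 difference was -1.08 (SE 0.167, 95% interval -1.50 to -0.66), with an unadjusted p of 0.000885 and an adjusted p of 0.849 over all genes by limma. It thus did not pass, and it stood 17th of 16304 genes by p and 73rd by size among the lower ones. The values correspond to 18093 and 21433 reads with K97E and 33222 and 36437 reads with WT.

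Cxcl5 (ENSMUSG00000029371; chromosome 5, 90907219 to 90909483, plus strand), known in mice as LIX and a further CXCR2 ligand, had much the same profile at a far lower level. It stood at 3.54 and 5.36 TPM with K97E and 10.8 and 7.95 TPM with WT, on 305 and 426 estimated reads with K97E and 728 and 630 with WT. The groups did not overlap. The log2 difference was -1.06 (SE 0.247, 95% interval -1.67 to -0.44), with an unadjusted p of 0.00627 and an adjusted p of 0.965 by limma. The level of Cxcl1 over that of Cxcl5 was 85.6 and 73.3 in the K97E libraries and 67.8 and 84.9 in the WT libraries, so the ratio between these ligands overlapped between groups.

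Of the 4 tested ligands none passed over all genes, in a comparison where 0.00613% of tested genes did, 0.0% in the lower direction and 1 of 16304 in all. That gene, Mfsd4a, named after its values were seen, was higher with K97E and is no chemokine. At an unadjusted p under 0.05 stood 2 of the 4, both lower with K97E, beside 2.54% of all tested genes in that direction, 1.14% in the other and 3.68% in either. Both K97E libraries lay below both WT libraries, after scaling, for the same 2 of 4, Cxcl1 and Cxcl5, beside 16.8% of all tested genes. On TPM as deposited it was again those 2, beside 9.72% of tested genes below and 25.9% above WT. These ligands were chosen with earlier results of the same libraries known, so the counts describe them and are no independent support.

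Cxcl2 (MIP-2; chromosome 5, 91051730 to 91053797) and Cxcl3 (chromosome 5, 90933962 to 90937459) were near 0, and their promoters, printed above, hold the same GGGAATTTCC as that of Cxcl1. Cxcl2 stood at 0.036 and 0.015 TPM with K97E and 0.025 and 0.116 TPM with WT, and Cxcl3 at 0.05 and 0.027 TPM with K97E and 0.031 and 0.085 TPM with WT. These are 2 to 9 estimated reads for Cxcl2 and 2 to 15 for Cxcl3, too few to show a difference between groups. The intron-retaining Cxcl2-203 held all of the Cxcl2 signal in both K97E libraries and in WT replicate 1, and Cxcl3-202 all of the Cxcl3 signal in both WT libraries. The spliced transcript of Cxcl1 shares no run of 100 bases, the read length, with those of the other ELR genes, and its longest shared run is 23 bases, with Cxcl2 and with Cxcl3. Cxcl2 and Cxcl3 share a run of 110 bases with each other, so a read could be credited to either of that pair.

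The summed level of the 4 ELR ligands was 307 and 399 TPM with K97E and 741 and 683 TPM with WT. Cxcl1 made up 98.5% to 98.8% of that sum in every library. A two-sided exact permutation test over the libraries gave p = 0.33 for the sum, the smallest p that 2 against 2 allows.

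The ELR genes form a cluster with other CXC genes, and within it the level changed steeply from gene to gene. Counted from the start of Cxcl5 on GRCm39 chromosome 5, Ppbp begins at 9.2 kb, Pf4 at 13.1 kb, Cxcl3 at 26.7 kb, Cxcl15 at 35.2 kb, Cxcl1 at 131.9 kb and Cxcl2 at 144.5 kb. Cxcl2 starts 10.8 kb past the end of Cxcl1, and its mean level was 0.0478 TPM beside 525 TPM for Cxcl1. Ppbp, the platelet basic protein and itself an ELR ligand, stood at 10.0 and 7.15 TPM with K97E and 9.80 and 10.0 TPM with WT. It was above Cxcl5 in both K97E libraries and in WT replicate 2. Pf4 and Cxcl15 had means of 0.457 and 0.352 TPM.

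The lower Cxcl1 level with K97E was seen along the whole transcript. On the TPM scale the 4 exons of the spliced Cxcl1-201 stood at 151, 276, 329 and 248 in K97E replicate 1 and at 217, 396, 445 and 333 in K97E replicate 2. They stood at 383, 753, 833 and 639 in WT replicate 1 and at 361, 647, 761 and 585 in WT replicate 2. Each exon was lower in both K97E libraries, with log2 ratios of group means of -1.01, -1.06, -1.04 and -1.08 from the first exon to the last. For Cxcl5-201 the log2 ratios were -1.03, -0.73, -0.72 and -1.28, again with both K97E libraries below both WT libraries in each exon. These levels are the exon coverage credited to Cxcl1-201 and Cxcl5-201 when reads were divided between transcripts that overlap. They make up the level of that transcript, so they are no separate measure of it.

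**Figure D2:**
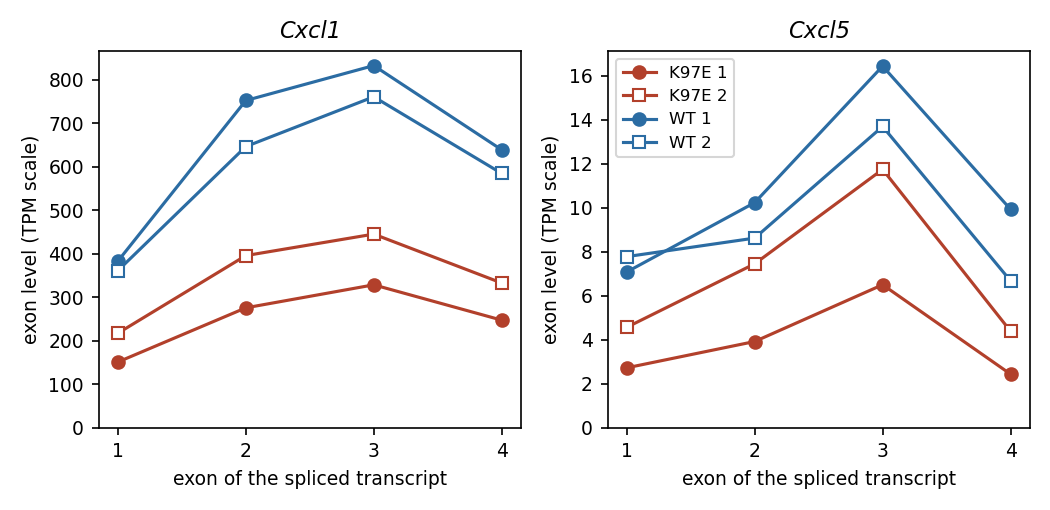
Exon level on the TPM scale along the spliced transcripts of Cxcl1 (left) and Cxcl5 (right), 1 line a library, with K97E in red and WT in blue. In each of the 4 exons of either gene both K97E lines lay below both WT lines.

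A part of the Cxcl1 signal was credited to Cxcl1-202, an annotated transcript of 1871 bases that retains all introns. It stood at 58.8 and 59.5 TPM with K97E and 96.9 and 99.6 TPM with WT, below WT in both K97E libraries as was the spliced form, at 244 and 334 TPM with K97E and 633 and 575 TPM with WT. As a share of Cxcl1 TPM the unspliced form was 19.4% and 15.1% with K97E and 13.3% and 14.8% with WT. Both K97E shares were above both WT shares, by a mean of 3.26 percentage points, of which 1.11 were left without K97E replicate 1. The intron-retaining Cxcl5-202 held 20.4% and 5.55% of Cxcl5 with K97E and 7.40% and 7.61% with WT, so those groups overlapped. These shares are estimates of a model that divides reads between transcripts that overlap, and were not tested.

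Cxcl12 (ENSMUSG00000061353; chromosome 6, 117145496 to 117158328, plus strand) varied more within groups than between them. It stood at 15.5 and 24.6 TPM with K97E and 25.7 and 9.62 TPM with WT, on 1157 estimated reads or more. The WT libraries differed from each other by 2.67 times and the K97E libraries by 1.58 times. The log2 difference was 0.24 (SE 0.473, 95% interval -0.94 to 1.43, limma adjusted p = 0.972), an interval that holds differences of either sign. It was 0.93 without WT replicate 1 and -0.44 without WT replicate 2, and 0.60 and -0.11 without K97E replicates 1 and 2. Exon 2, which all 4 transcripts share and whose total does not depend on how reads are divided among them, gave the libraries in the same order, with 22.5 and 31.1 on the TPM scale with K97E and 33.2 and 12.6 with WT.

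The isoforms of Cxcl12 set K97E replicate 1 apart from the other libraries. The 3-exon Cxcl12-202, which codes for 89 residues and is known as the alpha form, held 10.3% and 59.1% of Cxcl12 TPM with K97E and 60.0% and 62.6% with WT. The intron-retaining Cxcl12-204 held 56.7% and 11.2% with K97E and 14.9% and 7.41% with WT. These transcripts differ mainly in the length of exon 3, which is 1578 bases in Cxcl12-202 and 2636 bases in Cxcl12-204, and their shares together were 67.0% and 70.4% with K97E and 74.9% and 70.0% with WT. The 4-exon Cxcl12-203, the beta form of 93 residues, held 26.3% and 25.2% with K97E and 19.7% and 26.2% with WT. The longest, Cxcl12-201, the gamma form of 119 residues, held 3.74% to 6.72% in all libraries. The mean share of Cxcl12-202 differed by -26.6 percentage points, and by -2.14 without K97E replicate 1.

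**Figure D3:**
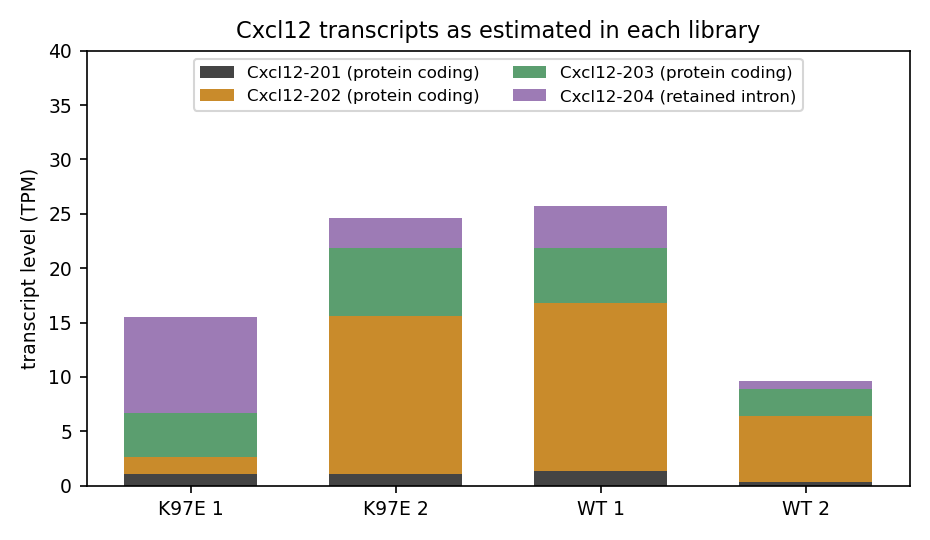
Stacked transcript levels of Cxcl12 in TPM, with the K97E libraries left of the WT libraries. The total ran from 9.62 TPM in WT replicate 2 to 25.7 TPM in WT replicate 1, and Cxcl12-202 took 10.3% of it in K97E replicate 1 against 59.1% to 62.6% in the others.

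Cxcl14 (chromosome 13, 56436456 to 56444364, minus strand) was listed at 0 in all 4 libraries. Cx3cl1 (fractalkine; ENSMUSG00000031778; chromosome 8, 95498637 to 95509055, plus strand), which holds leukocytes to the cell surface until it is shed, had the smallest SE of the 4 tested ligands. It stood at 21.0 and 22.2 TPM with K97E and 21.2 and 18.9 TPM with WT, and the groups overlapped. The log2 difference was 0.048 (SE 0.111, 95% interval -0.23 to 0.33, limma adjusted p = 0.980), and its sign turned without K97E replicate 2, to -0.025, and without WT replicate 2, to -0.032. The coding Cx3cl1-201 held 98.9% and 98.3% of the signal with K97E and 98.6% and 96.4% with WT. Cxcl16 (chromosome 11, 70344809 to 70350810, minus strand), the other ligand with a membrane anchor, stood at 0.114 and 0.091 TPM with K97E and 0.093 and 0.049 TPM with WT, on 7 to 16 estimated reads. The groups overlapped at a depth too low to show a difference, and the span of Cxcl16 overlaps that of Zmynd15, itself at a mean of 0.0472 TPM.

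Of 7 receptors of these ligands 4 were at or near 0. Cxcr1, Cxcr2 and Ackr1, the neutrophil receptors and a scavenger of ELR ligands, were listed at 0 in every library, and Cx3cr1 stood at 0.121 to 0.185 TPM. The Cxcl12 receptors were measured. Ackr3, which takes up Cxcl12, stood at 11.9 and 14.7 TPM with K97E and 13.5 and 15.3 TPM with WT, with a log2 difference of -0.17 (95% interval -0.55 to 0.21). Cxcr4, the signalling receptor, stood at 6.71 and 6.40 TPM with K97E and 4.42 and 8.63 TPM with WT, with a log2 difference of 0.02 (95% interval -0.71 to 0.75). The WT libraries thus enclosed both K97E values of Cxcr4. Cxcr6 lay near the limit for testing, at 0.470 and 0.615 TPM with K97E and 0.518 and 0.594 TPM with WT. None of the 3 receptors tested passed, and the groups overlapped for each.

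Of 8 other CXC ligands 4 were tested and none passed, and all 4 had a negative log2 difference, with a median of -0.70 beside a median of 0.00 over all tested genes, where 50.5% were negative. Cxcl10, an interferon-induced ligand of CXCR3 on T cells, was the one ligand here more abundant than Cxcl1, at 495 and 787 TPM with K97E and 975 and 813 TPM with WT. Its log2 difference was -0.57 (95% interval -1.21 to 0.07), -0.20 without K97E replicate 1 and -0.94 without K97E replicate 2. Cxcl9, a further CXCR3 ligand, stood at 4.62 and 10.1 TPM with K97E and 36.6 and 11.8 TPM with WT. The log2 difference of Cxcl9 was -1.59 (95% interval -3.07 to -0.12). It was -1.04 without K97E replicate 1, -0.80 without WT replicate 1 and -2.39 without WT replicate 2. Its unadjusted limma p was under 0.05, beside 2.54% of all tested genes in the lower direction and 3.68% in either. Cxcl11, named after its values were seen, overlapped between groups. It stood at 1.215 and 4.18 TPM with K97E and 7.43 and 2.49 TPM with WT, a log2 difference of -0.83 (95% interval -2.41 to 0.75). Ppbp had a log2 difference of -0.27 (95% interval -0.67 to 0.13), on values given above that overlap as deposited, and was at -0.47 without K97E replicate 1 and -0.07 without K97E replicate 2.

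Of 7 enzymes that shed, trim or help to shed these ligands 6 were tested and none passed, with a median log2 difference of -0.04. Adam17, a sheddase of Cx3cl1, stood at 37.2 and 39.1 TPM with K97E and 37.7 and 38.4 TPM with WT, and its log2 difference was -0.05 (95% interval -0.29 to 0.18) and 0.004 on TPM as deposited. Rhbdf2, which brings ADAM17 to the surface, stood at 27.7 and 25.6 TPM with K97E and 27.3 and 30.7 TPM with WT, so the groups overlapped as deposited. Its log2 difference was -0.18, and -0.10 without WT replicate 2. Mmp9, a gelatinase that trims ELR ligands, stood at 0.245 and 0.674 TPM with K97E and 1.15 and 0.757 TPM with WT. Its log2 difference was -0.65 (95% interval -1.43 to 0.13), and -0.31 without K97E replicate 1, -0.99 without K97E replicate 2, -1.05 with a pseudocount of 0.1, -1.31 with voom weights and -0.37 from FPKM, so its size depends on these choices. Dpp4, the peptidase that inactivates Cxcl12, was at or near 0.

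In the NF-kB route that induces ELR ligands none of 15 genes passed, and 11 had a negative log2 difference, with a median of -0.12. At an unadjusted p under 0.05 stood 4, all lower with K97E, beside 2.54% of all tested genes in that direction and 3.68% in either. Nfkbiz, a nuclear cofactor of NF-kB that many secondary targets need, stood at 29.3 and 30.1 TPM with K97E and 37.6 and 41.8 TPM with WT, with a log2 difference of -0.47 (95% interval -0.72 to -0.21). Nfkbia, the inhibitor that NF-kB itself induces, stood at 57.4 and 55.1 TPM with K97E and 63.5 and 67.9 TPM with WT, with a log2 difference of -0.28. Traf3ip2, the adaptor of interleukin-17 receptors, stood at 18.0 and 15.9 TPM with K97E and 19.5 and 19.9 TPM with WT, a log2 difference of -0.27. Each of these had both K97E libraries below both WT libraries, as did 7 of the 15 after scaling, beside 16.8% of all tested genes, and 6 of the 15 on TPM as deposited, beside 9.72%. The other gene at that level of p was Nfkb1, at -0.26, named after its values were seen, and Il1r1 and Il17ra had both K97E libraries above both WT libraries, beside 16.3% of all tested genes after scaling and 25.9% as deposited. The limma adjusted p was 0.965 for each of the 4.

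Regulators of mRNA decay were tested in full, 7 of 7, and none passed, with a median log2 difference of -0.11. Zc3h12a (Regnase-1), a nuclease that cleaves stem loops of inflammatory mRNAs, stood at 29.4 and 31.6 TPM with K97E and 40.7 and 45.7 TPM with WT. Its log2 difference was -0.55 (SE 0.109, 95% interval -0.82 to -0.28, limma adjusted p = 0.965). Zfp36l1, which binds AU-rich elements, stood at 31.6 and 28.5 TPM with K97E and 36.0 and 38.9 TPM with WT, a log2 difference of -0.37. Zfp36, which codes for TTP, stood at 33.1 and 35.9 TPM with K97E and 38.0 and 36.5 TPM with WT, a log2 difference of -0.17 that was -0.08 without K97E replicate 1, -0.26 without K97E replicate 2 and -0.11 on TPM as deposited. The first 2 had an unadjusted p under 0.05, both lower with K97E, beside 2.54% of all tested genes in that direction and 3.68% in either.

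**Figure D4:**
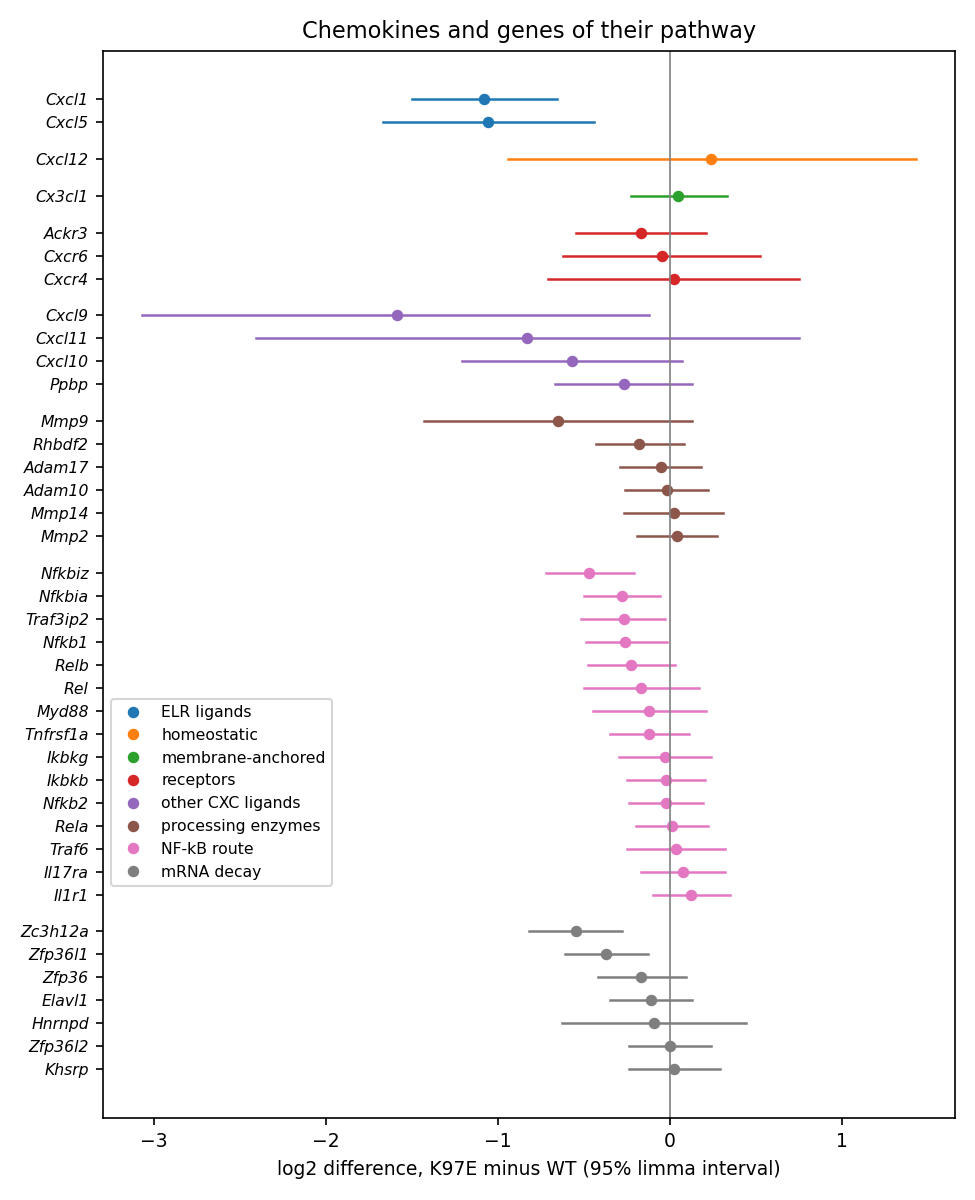
Log2 difference, K97E minus WT, with the 95% interval from limma, for the tested ligands and the tested genes of the lists around them. Cxcl1 and Cxcl5 stood at -1.08 and -1.06. Of the other CXC ligands Cxcl9 stood at -1.59 and Cxcl11 at -0.83, both with wider intervals. The receptors and most genes of the NF-kB route lay nearer 0, and no gene shown passed after adjustment over 16304 genes.

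Among 10117 genes with a mean of 5 TPM or more, predicted genes left out, likeness to a ligand was measured as the distance between log2 values centred on the mean of the 4 libraries. The 5 nearest Cxcl1 were Ifit1bl1 at a distance of 0.171, Eif1ad15 at 0.200, Cxcl5 at 0.241, Eif1ad2 at 0.245 and Ifi206 at 0.256. Ifit1bl1, a relative of the interferon-induced Ifit genes, stood at 19.8 and 30.5 TPM with K97E and 54.1 and 47.8 TPM with WT. Eif1ad2 and Eif1ad15 have close relatives in the genome, so reads may have been split between copies. The 5 nearest Cxcl12 lay farther off, with Derpc at 0.301, Srp54a at 0.343, Bnc2 at 0.468, Ptn at 0.497 and Cdc26 at 0.532. Derpc stood at 5.31 and 6.48 TPM with K97E and 8.38 and 2.53 TPM with WT, so that it too was highest and lowest in the WT libraries. With 4 libraries many profiles are alike, and these distances are a description.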

How the data were processed

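RNA-seq was deposited for 4 libraries of transfected C2C12 cells, 2 for K97E and 2 for wild-type lamin A, grouped by their titles, of which those of the K97E samples give the line as C1C12. Per the file headers, the authors ran StringTie 2.1.7 on annotated transcripts only (Ensembl release 104, GRCm39), with no strand option although the labels name a stranded kit, which gives coverage, FPKM and TPM for 142434 transcripts in each library. The submitters' processing notes also name HISAT2, SAMtools, FastQC and DESeq2, with no word on the part DESeq2 played. The files hold no read counts, so estimated reads are coverage times length over the read length of 100, no counting interval was computed, and DESeq2 was not run. The symbol of Cxcl14 stands under another tag than the other symbols, one that occurs only on lines listed at 0.

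Gene TPM was the sum over transcripts, divided by median-of-ratios factors (0.980 to 1.04). Values of log2(TPM + 0.5), for the 16304 genes with a mean of at least 0.5 TPM, went into limma 3.58.1 under R 4.3.3 (trended eBayes with a total of 5.54 degrees of freedom). The test is two-sided and adjusted by Benjamini-Hochberg over all of them at 0.05. This scale understates the change of low genes. TPM means and SDs are of deposited values. The fit was also run on simulated data with normal noise of limma's own prior variance. That checks the code and cannot show how well the model suits these libraries. Exon levels are coverage over the library's coverage per TPM. GENCODE M21, of another build, gave transcript types, coding lengths and 3′ regions (longest coding sequence per gene) by ID. The ligands and lists were chosen with earlier results of these data known. From each list of other ligands, processing enzymes, the NF-kB route and mRNA decay the 3 genes with the smallest p were named, with all ligands, all receptors and the 5 genes nearest to Cxcl1 and to Cxcl12; the marker genes named were chosen after their values were seen. Results were recomputed with FPKM, voom weights, other eBayes settings, scalings, filters and pseudocounts, a block for replicate number, and leaving out single libraries.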

Additional observations from a re-analysis of the deposited data

How the results depend on the processing

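Cxcl1 kept its direction under all 16 alternatives, with a log2 difference from -1.30 to -0.86, and Cxcl5 likewise, from -1.36 to -0.76. For each of them both K97E libraries lay below both WT libraries. A left-out library, a block or another eBayes setting could thus hardly have turned the sign, and only the size is informative there. With a library left out, the log2 ratio of the summed ELR ligands ran from -1.21 to -0.84. Over all genes the calls higher and lower with K97E were 0 and 0 with no filter or with the replicate number as a block, 2 and 3 with voom weights, and 1 lower with TPM as deposited and with eBayes without trend. With a library left out they ran from 0 to 4 higher and from 0 to 14 lower; 1 group then holds a single sample, which is assumed to vary like the other group, so the spread comes from the other group alone. The labels do not say that replicate numbers pair samples, so the main fit had no block. The deviations of libraries with the same number correlated at -0.137 over 16304 genes. A crossed block, chosen after seeing the data, gave 3 higher and 27 lower, with 2 of the ligands and 1 gene of the lists called. No ligand was called under any other alternative, where the fits with a library left out say little about stability. Values that changed sign were not called either way: Cxcr4 stood at -0.009 and Srp54a at -0.070 with voom weights, and Adam17 at 0.004 with TPM as deposited. With a library left out the ranges were -0.44 to 0.93 for Cxcl12, -0.032 to 0.125 for Cx3cl1, -0.43 to 0.47 for Cxcr4, -0.347 to 0.008 for Ackr3, -0.167 to 0.065 for Cxcr6, -0.123 to 0.013 for Adam17, -0.54 to 1.02 for Derpc, -0.47 to 0.53 for Srp54a, -0.21 to 0.54 for Bnc2, -0.11 to 0.71 for Ptn and -0.20 to 0.62 for Cdc26. The cause of these shifts was not tested. Depth limits Cxcl2, Cxcl3 and Cxcl16, at 16 estimated reads or fewer in a library, where no difference was detectable.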
